A study of Mus musculus with 4 samples.

Results

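The genes described here are 45 interferon response and antigen presentation genes, read by their listed symbols from a table of 24421 gene symbols, in which all 45 were found. They were compared between DPPIV- and DPPIV+ fibro-adipogenic progenitors (FAPs), stromal cells of skeletal muscle that were sorted as CD31- CD45- Sca1+ cells and split by the surface protein that the Dpp4 gene encodes. Each of 2 wild-type adult mice gave 1 DPPIV- and 1 DPPIV+ sample for bulk RNA sequencing, so that there are 4 libraries and n = 2 mice per cell type. Both mice had been fed the CSF1R inhibitor PLX73086, which depletes macrophages, for 3 weeks and a regular diet for the next 3 days, and all 4 libraries share this treatment. No untreated mouse was analysed here. Between 18240110 and 20879405 reads were counted on genes per library, and 3 reads, taken as the floor of detection for counting error only, correspond to between 0.143 and 0.166 CPM (reads scaled to the library size). Library sizes were adjusted by the TMM method, log2 fold changes are DPPIV+ over DPPIV- FAPs, fitted in edgeR with the mouse as a block and given with their standard error (SE), and a gene was called when its adjusted p was under 0.05. Where no other unit is named, a difference between the cell types is a fitted log2 fold change. Of the 45 genes, 43 reached 2 CPM in at least 2 libraries and were tested among 11588 genes.

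FAP markers were abundant in every library. Dpp4 itself had 89.6 CPM in the DPPIV- and 726 CPM in the DPPIV+ library of mouse 1, and 39.6 and 574 CPM in those of mouse 2, and Pdgfra, a FAP receptor, had 1654 CPM (DPPIV-) and 1238 CPM (DPPIV+) in mouse 1 and 1473 and 1157 CPM in mouse 2. Markers of other cells were detected as well. The leukocyte gene Ptprc, which encodes CD45, had 6.41 to 9.73 CPM over the 4 libraries, and 16 macrophage and monocyte genes together had 438 and 267 CPM in the DPPIV- libraries of mouse 1 and mouse 2, against 290 and 249 CPM in the DPPIV+ libraries. The DPPIV- library of mouse 1 stood apart from the other 3 in these genes and in MHC class II genes, so some values are also given without it. Its DPPIV+ partner is then unpaired, so that fit has no mouse block either, and its DPPIV- side is 1 library. Other marker lists also differed between the cell types. The 4 tenocyte genes summed to 196 and 294 CPM in the DPPIV- libraries of mouse 1 and mouse 2 and to 747 and 1546 CPM in the DPPIV+ libraries, where Fmod, a proteoglycan of tendon matrix, held most of the sum, and 4 of 4 were called higher in DPPIV+ FAPs. The 6 mural cell genes summed to 121 and 123 CPM against 51.0 and 63.4 CPM, with 5 called lower and 0 higher by edgeR (0 higher also at an unadjusted p under 0.05 and in DESeq2). The 8 blood endothelial genes summed to 264 and 192 CPM against 512 and 466 CPM. Of the 7 that were tested, 4 were called lower, and Tek, a receptor tyrosine kinase that held most of the sum, was called higher (log2 fold change 1.42). The part of these cells in the values of the listed genes was not tested. Because whole populations were sequenced, a gene with a lower value may mean fewer cells that express it or less of its RNA per cell, and these cannot be told apart.

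Interferons are secreted proteins that warn cells of infection. Type I interferons bind the receptor of Ifnar1 and Ifnar2, and interferon gamma that of Ifngr1 and Ifngr2, and both act through STAT and IRF transcription factors that switch on antiviral genes, interferon-inducible GTPases and the machinery that shows peptides to T cells. Complexes that hold an IRF factor bind the interferon-stimulated response element (ISRE), and pairs of STAT proteins bind the gamma-activated site (GAS). MHC class I is made by most cells, while MHC class II is chiefly a product of macrophages, dendritic cells and B cells. Stromal cells keep a basal level of this programme even without infection.

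Promoter windows from 250 bases before to 50 after the transcript start were available for 37 of the 45 genes (RefSeq, build GRCm38.p6), as 43 windows. The ISRE core GAAANNGAAA, searched on both strands, was in the windows of 17 of these 37 genes, or 39.5% of their windows, against 3.44% of all 32851 promoter windows and 3.05% of those of genes tested. The GAS letters TTCNNNGAA were in the windows of 11 genes, or 25.6% of their windows, against 8.3% of all windows and 6.74% of those of genes tested. The GAS letters read the same on both strands, and they overlapped an ISRE match in Bst2 and Ifitm3. These matches describe letters in a window and not bound sites. Sequences are written on the strand of the gene. The 250 bases before the starts of 3 neighbours on chromosome 19 are shown because edgeR with the block called their transcripts differently. Ifit2 (chr19:34550444-34550693) and Ifit1 (chr19:34640639-34640888) were called higher in DPPIV+ FAPs and Ifit3 (chr19:34583279-34583528) was called lower. All 3 lie on the plus strand, and capitals mark the ISRE core in Ifit1 and Ifit3 and the GAS letters in Ifit2.
Ifit2: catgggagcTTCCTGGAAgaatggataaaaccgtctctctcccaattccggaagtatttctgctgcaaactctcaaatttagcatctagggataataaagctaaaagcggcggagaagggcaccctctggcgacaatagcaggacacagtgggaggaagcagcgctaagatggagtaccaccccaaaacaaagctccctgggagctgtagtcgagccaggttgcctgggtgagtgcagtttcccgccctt
Ifit3: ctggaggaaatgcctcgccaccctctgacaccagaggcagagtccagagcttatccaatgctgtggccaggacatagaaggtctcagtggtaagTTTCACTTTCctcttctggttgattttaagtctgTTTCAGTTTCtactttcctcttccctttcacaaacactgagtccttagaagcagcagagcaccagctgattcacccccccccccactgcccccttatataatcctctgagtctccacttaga
Ifit1: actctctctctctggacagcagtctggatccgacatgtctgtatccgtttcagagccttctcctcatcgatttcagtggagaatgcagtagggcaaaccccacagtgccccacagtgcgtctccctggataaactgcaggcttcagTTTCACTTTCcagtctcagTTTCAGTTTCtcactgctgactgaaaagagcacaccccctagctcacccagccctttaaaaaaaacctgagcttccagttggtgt

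Ifit1 and Ifit3 each held 2 ISRE core matches, at positions -104 and -85 in Ifit1 and at -156 and -122 in Ifit3, counted from the transcript start. The Ifit2 window shown held no ISRE core and 1 GAS match, at position -241. Another Ifit2 window, at a further transcript start (chr19:34550838-34551137), held neither motif. The first ISRE matches of Ifit1 and Ifit3 have the same letters, while edgeR with the block called the transcripts in opposite directions. Ifit1 was called neither by DESeq2 (adjusted p = 0.201) nor by edgeR without the block (adjusted p = 0.134). Ifit3 was not called without the block (adjusted p = 0.0690, edgeR). Its transcript is 97.82% identical to that of Ifit3b over 1700 bases, so the division of reads between these copies is uncertain.

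Short stretches around the first ISRE match are shown for some other genes that hold one, with the matched letters in capitals, also where further matches follow. They come from the windows chr5:120907476-120907775 (minus strand) for Oas1a, chr10:128270248-128270547 (plus strand) for Stat2, chr2:122147437-122147736 (plus strand) for B2m, chr3:142620413-142620712 (plus strand) for Gbp2, chr11:58199306-58199605 (plus strand) for Igtp, chr7:140955912-140956211 (minus strand) for Ifitm2 and chr4:156200769-156201068 (minus strand) for Isg15.
Oas1a: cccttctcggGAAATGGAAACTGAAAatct
Stat2: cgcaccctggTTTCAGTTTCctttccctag
B2m: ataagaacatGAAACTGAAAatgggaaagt
Gbp2: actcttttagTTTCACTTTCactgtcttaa
Igtp: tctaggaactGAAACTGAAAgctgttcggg
Ifitm2: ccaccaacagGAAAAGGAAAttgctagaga
Isg15: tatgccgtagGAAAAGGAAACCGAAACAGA

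The first matches lay at position -20 in Oas1a, -222 in Stat2, -139 in B2m, -59 in Gbp2, -34 in Igtp, -46 in Ifitm2 and -78 in Isg15. The first 5 of these genes were called higher in DPPIV+ FAPs, Ifitm2 was called lower and Isg15 was not called. Isg15 held 3 matches, and the stretch shown ends inside the last of them. The windows of Irf7, Tapbp, Irf5 and Ifngr1, which were all called, held no ISRE core, and Usp18 had no window. Among the 17 genes with an ISRE core, 8 were called higher and 2 lower (47.1% and 11.8%), with a median log2 fold change of 0.17. Among the 19 tested genes that had a window without it, 8 were called higher and 3 lower (42.1% and 15.8%), with a median of 0.19. The shares over all genes tested were 15.9% and 17.2%.

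**Figure D1:**
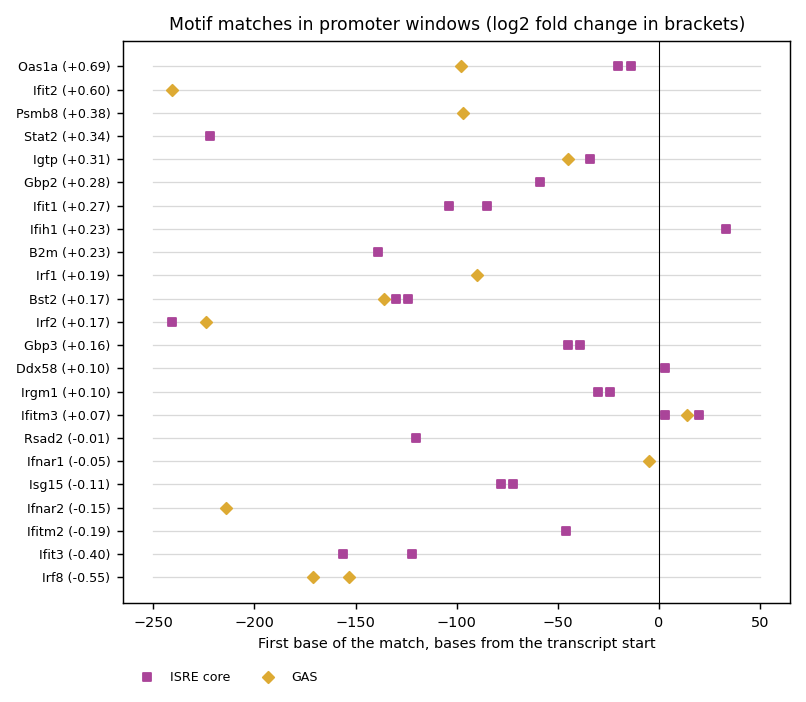
Positions of the ISRE core GAAANNGAAA (squares) and the GAS letters TTCNNNGAA (diamonds) in the promoter windows of the tested listed genes that hold a match, in bases from the transcript start (vertical line), with up to 2 matches per motif and window. Genes are ordered by their log2 fold change of DPPIV+ over DPPIV- FAPs, in brackets, from Oas1a at 0.69 to Irf8 at -0.55, and ISRE matches occur both in genes above and in genes below 0.

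Across the whole list, 18 of the 43 tested genes were higher and 6 were lower in DPPIV+ FAPs, while 19 were not called (edgeR's quasi-likelihood test, Benjamini-Hochberg adjustment over the 11588 genes). Of all genes tested, 15.9% were called higher and 17.2% lower, so the share called higher in the list was 41.9% and the share called lower 14.0%. The median log2 fold change of the list was 0.17, against -0.00 over all genes tested. Most differences were small: 5 of the listed genes were higher by 1.5-fold or more and 1 was lower by as much, against 5.76% and 9.24% of all genes. In a test against a 1.5-fold change, Irf7 and Usp18 passed and no listed gene passed on the lower side (edgeR, 1 at an unadjusted p under 0.05), against 3.76% and 5.66% of all genes. DESeq2's Wald test, the tool of the study, called 7 higher and 3 lower (7.97% and 8.59% of all genes). Leaving the mouse block out of the edgeR model gave 5 higher and 2 lower (8.64% and 9.66% of all genes). With the block left out and the DPPIV- library of mouse 1 left out as well, 12 were higher and 2 lower (9.05% and 9.41% of all genes). The calls of the paired model that ended there were those of Ifih1, Irf1, Stat2, Oasl2, Bst2 and Nlrc5 as higher and of Irf8, Ifit3, Ifitm2 and Cd74 as lower. Each of these also ended with all 4 libraries and no block, so that the library and the block cannot be told apart in them. The fit without that library sets both DPPIV+ libraries against the DPPIV- library of mouse 2, so it also holds the difference between the mice. In the paired model the fitted value of mouse 2 was below that of mouse 1 in 42 of the 43 genes. This moves the fit without that library towards higher calls, so its higher calls cannot show that a rise holds without it. In each of the 11 fits that tested for any difference, 7 genes were called the same way: Irf7, Usp18, Ifit2, Oas1a and Tapbp as higher, and Irf5 and Ifngr1 as lower. Both DPPIV+ libraries lay above both DPPIV- libraries in 20 of the tested listed genes and below them in 6, against 27.8% and 28.6% of all genes tested.

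**Figure D2:**
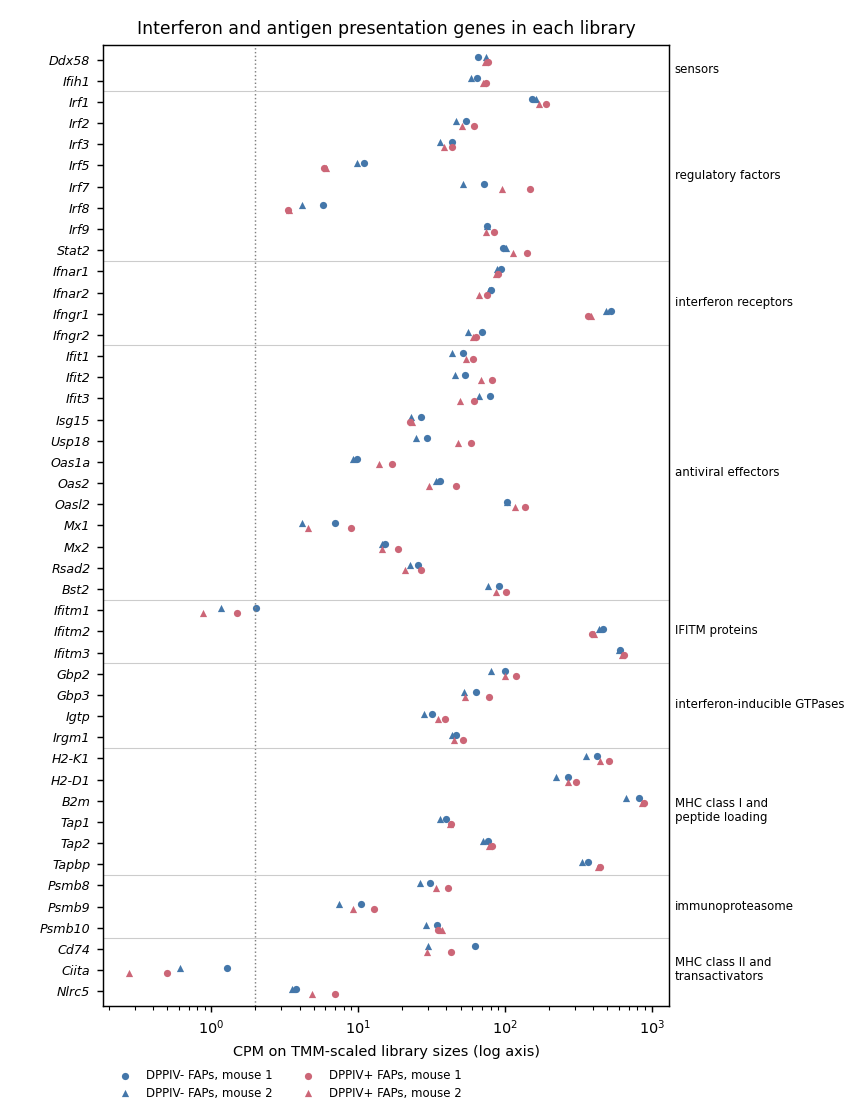
CPM of the 45 genes in each of the 4 libraries on a log axis, grouped by role, with blue points for DPPIV- and red points for DPPIV+ FAPs, circles for mouse 1, triangles for mouse 2 and a dotted line at 2 CPM. Irf7, Usp18 and Oas1a are well separated between the cell types, Irf5 and Ifngr1 are separated the other way, and for most genes the 4 points lie close together.

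**Figure D3:**
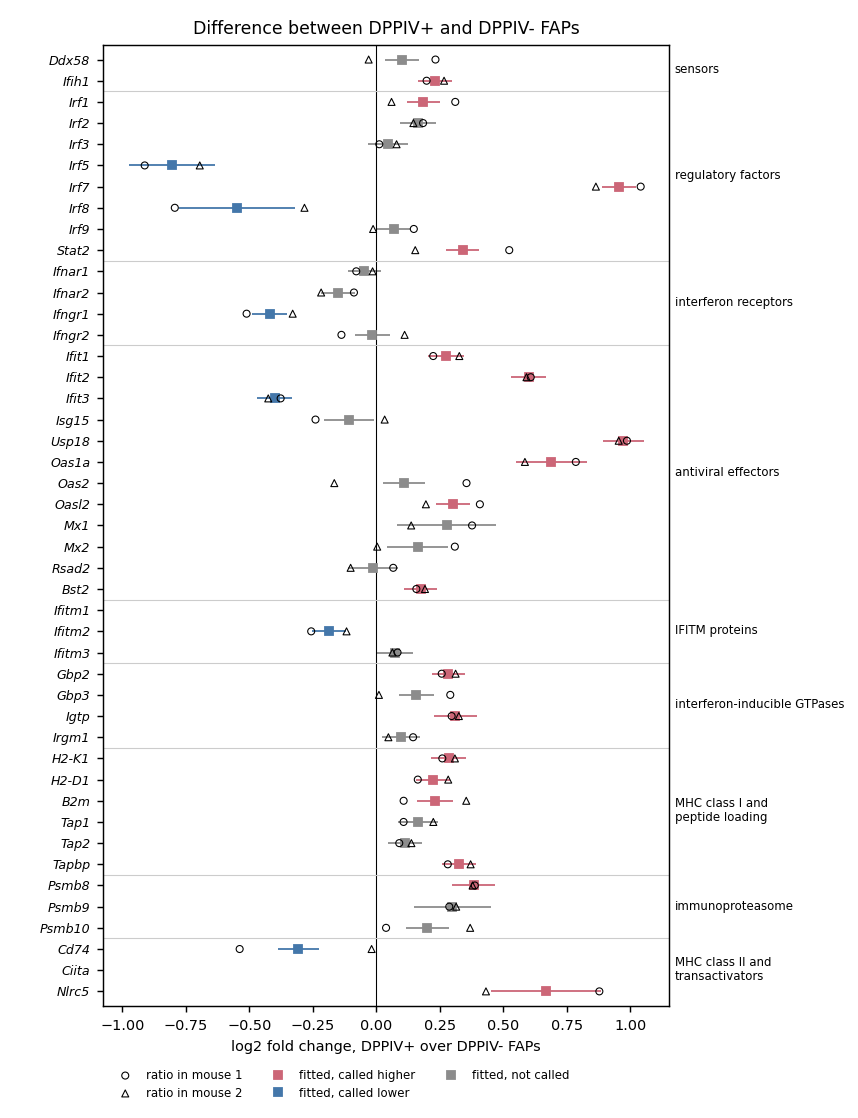
Log2 fold changes of DPPIV+ over DPPIV- FAPs for the genes that were tested, with squares for the fitted value, bars for ± 1 standard error, circles for the ratio in mouse 1 and triangles for that in mouse 2. Red squares are genes called higher, blue squares genes called lower and grey squares genes not called, and the values run from 0.97 for Usp18 to -0.81 for Irf5.

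Sensors of viral RNA differed little. Ifih1, which encodes MDA5, had 64.5 CPM in the DPPIV- and 73.9 CPM in the DPPIV+ library of mouse 1, and 59.1 and 71.1 CPM in those of mouse 2. Its DPPIV+ libraries both lay above the DPPIV- libraries, with a log2 fold change of 0.23 (SE 0.07, edgeR adjusted p = 0.00263). DESeq2 and the model without the block did not call it. Ddx58, which encodes RIG-I, had 65.8 CPM (DPPIV-) and 77.3 CPM (DPPIV+) in mouse 1 and 74.4 and 72.9 CPM in mouse 2. The groups overlapped and Ddx58 was not called, with a fold change whose 95% interval ran from 0.98 to 1.17. Such intervals rest on a spread shared over genes and do not measure the spread of a gene between the 2 mice. The log2 ratios of Ddx58 were 0.23 in mouse 1 and -0.03 in mouse 2.

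The regulatory factors were called in both directions, with 3 higher and 2 lower of 8. That is 37.5% and 25%, beside 15.9% and 17.2% of all genes. Irf7, the factor that amplifies type I interferon production, had 71.9 CPM in the DPPIV- and 148 CPM in the DPPIV+ library of mouse 1, and 52.2 and 95.1 CPM in those of mouse 2. Both DPPIV+ values were above both DPPIV- values, and mouse 1 was the higher animal in each cell type. The log2 fold change was 0.96 (SE 0.07, edgeR adjusted p = 1.03e-44), with log2 ratios of 1.04 in mouse 1 and 0.86 in mouse 2, and Irf7 stayed called in DESeq2 (adjusted p = 6.03e-14) and in edgeR without the block (adjusted p = 0.0196). Irf7 lies on chromosome 7 from 141262706 to 141266481 (GENCODE M21, GRCm38) and shares 45 exon bases with Phrf1 on the opposite strand. Stat2, a transcription factor of type I signalling, had 97.9 CPM (DPPIV-) and 141 CPM (DPPIV+) in mouse 1 and 102 and 113 CPM in mouse 2. The groups did not overlap, the rise was larger in mouse 1 (0.52 in mouse 1 and 0.15 in mouse 2 on the log2 scale), and the fitted log2 fold change of 0.34 (SE 0.07, edgeR adjusted p = 1.73e-06) was not called without the block (adjusted p = 0.0712, edgeR). Irf1, an early factor of the interferon gamma response, was the third gene called higher in this role, at 0.19, with 153 CPM (DPPIV-) and 189.8 CPM (DPPIV+) in mouse 1 and 164 and 171 CPM in mouse 2. Neither DESeq2 nor the model without the block called it.

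Irf5 and Irf8, factors best known from macrophages, dendritic cells and B cells, went the other way. Irf5 had 11.1 CPM (DPPIV-) and 5.88 CPM (DPPIV+) in mouse 1 and 9.85 and 6.08 CPM in mouse 2, with no overlap. Its log2 fold change was -0.81 (SE 0.17, edgeR adjusted p = 1.36e-05), and 411 of its exon bases are shared with Tnpo3 on the opposite strand. Irf8 was much rarer, with 121 DPPIV- and 60 DPPIV+ reads in mouse 1 and 81 and 62 in mouse 2. Its log2 fold change was -0.55 (SE 0.23, edgeR adjusted p = 0.0486), and DESeq2 did not call it (adjusted p = 0.559). Only its DPPIV- library of mouse 1 stood clearly higher, and Irf8 was not called without the block, either with all 4 libraries (adjusted p = 0.184, edgeR) or without that one (adjusted p = 0.645, edgeR). The summed macrophage markers were also highest in that library, and their part in the Irf5 and Irf8 values was not tested. Irf2, Irf3 and Irf9 were not called and lay between 0.04 and 0.17.

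Among the interferon receptors, Ifngr1, the ligand-binding chain for interferon gamma, was lower in DPPIV+ FAPs. It had 528 CPM in the DPPIV- and 371 CPM in the DPPIV+ library of mouse 1, and 487 and 387 CPM in those of mouse 2. Both DPPIV+ libraries were below both DPPIV- libraries, and the ratios were -0.51 in mouse 1 and -0.33 in mouse 2 on the log2 scale. The fitted log2 fold change was -0.42 (SE 0.07, edgeR adjusted p = 6.96e-09). Its partner chain Ifngr2 had a log2 fold change of -0.02 with overlapping groups and was not called. The type I chains Ifnar1 and Ifnar2 were not called either, at -0.05 and -0.15. All 4 fitted values of this role were below 0, from -0.42 to -0.02.

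The antiviral effectors gave 6 of the 18 rises and 1 of the 6 falls over 12 genes. That is 50% and 8.33%, beside 15.9% and 17.2% of all genes. Usp18, the protease that removes ISG15 and dampens signalling at the type I receptor, had 29.6 CPM in the DPPIV- and 58.6 CPM in the DPPIV+ library of mouse 1, and 24.6 and 47.7 CPM in those of mouse 2. The groups did not overlap, and the ratios were almost the same in both animals, on the log2 scale 0.99 in mouse 1 and 0.95 in mouse 2. Its log2 fold change of 0.97 (SE 0.08, edgeR adjusted p = 8.79e-32) and that of Irf7 were the top of the list, and the gap between them was smaller than either SE. Ifit2, which binds foreign RNA, had 53.5 CPM (DPPIV-) and 81.5 CPM (DPPIV+) in mouse 1 and 45.5 and 68.5 CPM in mouse 2. Here too the cell types were separated in both mice, with a log2 fold change of 0.60 (SE 0.07, edgeR adjusted p = 3.81e-17). Oas1a, an oligoadenylate synthetase that activates the antiviral nuclease RNase L, had 9.87 CPM (DPPIV-) and 17.0 CPM (DPPIV+) in mouse 1 and 9.23 and 13.9 CPM in mouse 2. Those values did not overlap and gave a log2 fold change of 0.69 (SE 0.14, edgeR adjusted p = 4.10e-06). The Oas1a transcript is 97.58% identical to that of Oas1g over 1861 bases, so reads between these genes may have been split, and Oas1g had under 2 CPM in every library.

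Ifit3 moved against Ifit1 and Ifit2. It had 79.7 CPM (DPPIV-) and 61.4 CPM (DPPIV+) in mouse 1 and 66.9 and 49.8 CPM in mouse 2, so that both DPPIV+ libraries were below both DPPIV- libraries. The log2 fold change was -0.40 (SE 0.07, edgeR adjusted p = 3.39e-08), it passed DESeq2 (adjusted p = 0.0140), and it was not called without the block (adjusted p = 0.0690, edgeR) or without both the block and the DPPIV- library of mouse 1 (adjusted p = 0.187, edgeR). Its transcript is 97.82% identical to that of Ifit3b over 1700 bases, so the division of reads between these copies is uncertain. The counts of Ifit3b fell as well, with a log2 fold change of -0.83 (adjusted p = 1.18e-08, edgeR). Because reads of either copy may have been counted on the other, these counts cannot show whether both copies were lower. Oasl2, Ifit1 and Bst2 were called higher at 0.30, 0.27 and 0.17, and none of the 3 passed DESeq2 or the model without the block. For Bst2, which tethers budding virus at the cell surface, the values of 91.8 CPM (DPPIV-) and 102 CPM (DPPIV+) in mouse 1 and 76.7 and 87.6 CPM in mouse 2 overlapped between the cell types, although the ratio was above 0 in each mouse. Isg15, Oas2, Mx1, Mx2 and Rsad2 were not called and lay between -0.11 and 0.28. GENCODE M21 lists Mx2 as a polymorphic pseudogene. Isg15 and Rsad2, common reporters of interferon exposure, had fold changes with 95% intervals of 0.813 to 1.06 and 0.867 to 1.13. Their log2 ratios in mouse 1 and mouse 2 were -0.24 and 0.03 for Isg15 and 0.07 and -0.10 for Rsad2.

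The IFITM proteins block the entry of viruses into cells. Ifitm3 was abundant and even, with 609.6 CPM (DPPIV-) and 646 CPM (DPPIV+) in mouse 1 and 603 and 630.1 CPM in mouse 2, and although the DPPIV+ libraries were the higher ones it was not called (95% interval of the fold change 0.958 to 1.16). Ifitm2 had 466 CPM (DPPIV-) and 389.7 CPM (DPPIV+) in mouse 1 and 436 and 402 CPM in mouse 2, a log2 fold change of -0.19 that passed edgeR (adjusted p = 0.0209) and not DESeq2 (adjusted p = 0.201). Ifitm1 stayed under the filter, with 42 DPPIV- and 27 DPPIV+ reads in mouse 1 and 23 and 16 in mouse 2.

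Of the interferon-inducible GTPases, which attack vacuoles that hold pathogens, Igtp and Gbp2 were called higher in DPPIV+ FAPs. Gbp2 had 99.8 CPM (DPPIV-) and 119 CPM (DPPIV+) in mouse 1 and 80.5 and 99.9 CPM in mouse 2. The groups did not overlap, but the DPPIV- library of mouse 1 came within 0.1 CPM of the DPPIV+ library of mouse 2. The log2 fold change was 0.28 (SE 0.07, edgeR adjusted p = 8.73e-05). Igtp had 32.0 CPM (DPPIV-) and 39.4 CPM (DPPIV+) in mouse 1 and 28.1 and 35.2 CPM in mouse 2, without overlap and with a log2 fold change of 0.31. It shares 162 exon bases with Irgm2 on the same strand, so reads there cannot be assigned to either gene. Neither Gbp2 nor Igtp passed DESeq2 or the model without the block. Gbp3 and Irgm1 were not called, at 0.16 and 0.10.

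MHC class I genes and the genes that load peptides onto it were shifted by small amounts, with 4 of 6 called higher. That is 66.7%, beside 15.9% of all genes, and all 6 fitted values were above 0. DESeq2 called 2 higher (33.3%, beside 7.97% of all genes). Tapbp, which encodes tapasin, had 368 CPM in the DPPIV- and 447 CPM in the DPPIV+ library of mouse 1, and 335 and 434 CPM in those of mouse 2. All DPPIV+ values were above the DPPIV- values, and the log2 fold change of 0.33 (SE 0.07, edgeR adjusted p = 1.07e-05) remained called in DESeq2 (adjusted p = 0.00297) and without the block (adjusted p = 0.0396, edgeR). Tapbp shares 149 exon bases with Zbtb22 on the same strand and 904 with Gm19412 on the opposite strand, so reads there may not be its own. H2-K1, a classical class I heavy chain, had 426 CPM (DPPIV-) and 509.6 CPM (DPPIV+) in mouse 1 and 359 and 445 CPM in mouse 2. Its groups did not overlap, with a log2 fold change of 0.28 (SE 0.07, edgeR adjusted p = 0.000167), which DESeq2 called (adjusted p = 0.0110) and the model without the block did not (adjusted p = 0.154, edgeR). B2m, the light chain shared by class I molecules, had 818 CPM (DPPIV-) and 881 CPM (DPPIV+) in mouse 1 and 669 and 855 CPM in mouse 2. The rise was 0.11 in mouse 1 and 0.35 in mouse 2 on the log2 scale. The fitted 0.23 (adjusted p = 0.00432, edgeR) was lost in DESeq2 (adjusted p = 0.0780) and without the block (adjusted p = 0.251, edgeR). H2-D1 was called at 0.22 with overlapping groups. Neither DESeq2 (adjusted p = 0.105) nor edgeR without the block (adjusted p = 0.277) called it. The peptide transporter genes Tap1 and Tap2 were not called, at 0.16 and 0.11, although both DPPIV+ libraries were the higher ones in each. H2-K1 is 97.02% identical to H2-Q7 over 201 bases and 98.15% to H2-D1 over 54, so parts of its counts may be shared with other class I genes.

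The immunoproteasome subunits Psmb8, Psmb9 and Psmb10 replace constitutive subunits and change the peptides that are cut for MHC class I. Psmb8 had 31.1 CPM (DPPIV-) and 40.7 CPM (DPPIV+) in mouse 1 and 26.3 and 34.2 CPM in mouse 2. The groups were separated, the log2 ratios were 0.39 in mouse 1 and 0.38 in mouse 2, and the log2 fold change was 0.38 (SE 0.09, edgeR adjusted p = 4.20e-05), which DESeq2 did not call (adjusted p = 0.0906). Psmb10 had 34.3 CPM (DPPIV-) and 35.3 CPM (DPPIV+) in mouse 1 and 28.8 and 37.2 CPM in mouse 2 and missed the threshold at 0.20 (adjusted p = 0.0528, edgeR). Psmb9, which shares 212 exon bases with Tap1 on the opposite strand, was not called at 0.30. Psmb9, Tap1, Psmb8 and Tap2 lie in a row on chromosome 17 between 34181987 and 34216321 (GRCm38), and all 4 had ratios above 0 in both mice. The constitutive counterparts Psmb5, Psmb6 and Psmb7 were not called.

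The transactivators and the MHC class II chaperone diverged. Nlrc5, which switches on MHC class I genes, had 79 DPPIV- and 125 DPPIV+ reads in mouse 1 and 70 and 88 in mouse 2, that is 3.77 CPM (DPPIV-) and 6.93 CPM (DPPIV+) in mouse 1 and 3.57 and 4.82 CPM in mouse 2. Both DPPIV+ libraries were higher, with a log2 fold change of 0.67 (SE 0.22, edgeR adjusted p = 0.00806), while DESeq2 did not call it (adjusted p = 0.327). Ciita, the master switch of MHC class II, stayed under the filter with 27 DPPIV- and 9 DPPIV+ reads in mouse 1 and 12 and 5 in mouse 2, and 329 of its exon bases overlap Dexi on the opposite strand. Cd74, the invariant chain of MHC class II, had 62.2 CPM in the DPPIV- and 42.8 CPM in the DPPIV+ library of mouse 1, and 29.8 and 29.5 CPM in those of mouse 2. Only the DPPIV- library of mouse 1 was high, the groups overlapped, and the ratios were -0.54 in mouse 1 and -0.02 in mouse 2 on the log2 scale. The fitted log2 fold change was -0.31 (SE 0.08, edgeR adjusted p = 0.000558). Without that library and the block it was 0.28 and not called (adjusted p = 0.365, edgeR), a value that sets both DPPIV+ libraries against the DPPIV- library of mouse 2 and so also holds the difference between the mice. Neither DESeq2 (adjusted p = 0.347) nor edgeR without the block (adjusted p = 0.551) called it.

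MHC class II genes and macrophage markers were both highest in the DPPIV- and next highest in the DPPIV+ library of mouse 1. The sum of Cd74, H2-Aa, H2-Ab1 and H2-Eb1 was 124 and 55.7 CPM in the DPPIV- libraries of mouse 1 and mouse 2 and 89.5 and 63.7 CPM in the DPPIV+ libraries. The 3 class II chain genes were not called between the cell types, with log2 fold changes from -0.11 to 0.01. Of the 13 tested macrophage and monocyte markers, 6 were lower in DPPIV+ FAPs and 0 higher by edgeR, with 9 and 0 at an unadjusted p under 0.05, while DESeq2 called 0 in either direction, with 2 lower and 0 higher at an unadjusted p under 0.05. Itgax, a gene of dendritic cells and some macrophages, had 10.6 CPM (DPPIV-) and 6.04 CPM (DPPIV+) in mouse 1 and 3.37 and 4.98 CPM in mouse 2. Lymphocyte markers summed to at most 0.382 CPM in any library, and the T cell gene Cd3g and the B cell gene Ms4a1 were at 0 reads in all 4. The part of macrophages or dendritic cells in the Cd74 values was not tested.

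**Figure D4:**
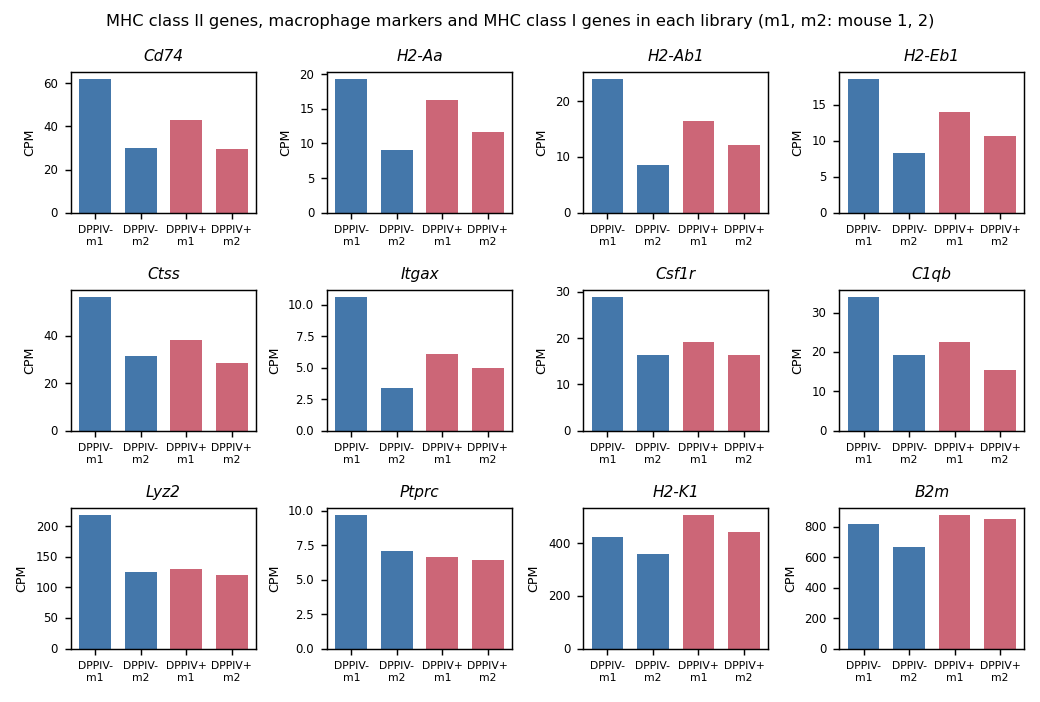
CPM of Cd74, of 3 MHC class II chain genes and Ctss, of leukocyte and macrophage markers (Itgax, Csf1r, C1qb, Lyz2, Ptprc), and of H2-K1 and B2m, in each library, with 1 bar per library and no error bars. Cd74, the class II genes and the macrophage markers are highest in the DPPIV- library of mouse 1, while H2-K1 and B2m are higher in the DPPIV+ library of each mouse.

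Levels of different genes were compared as CPM per kb of transcript. In DPPIV- FAPs, Ifitm3 had 894 ± 6.74 CPM per kb (SD, n = 2), B2m 864 ± 123 and Ifitm2 689 ± 31.7, and the order of Ifitm3 and B2m was not separated by their spread. H2-K1 (242 ± 29.1) and Ifngr1 (240 ± 14.0) followed and did not differ beyond their spread. These same 5 genes were the highest in DPPIV+ FAPs, where B2m had 1009 ± 21.6 CPM per kb, Ifitm3 941 ± 16.4 and Ifngr1 179 ± 5.54. Irf7 moved from place 15 of 45 (32.4 ± 7.26 CPM per kb) in DPPIV- FAPs to place 10 (63.4 ± 19.5) in DPPIV+ FAPs, and Usp18 from place 30 (15.3 ± 1.97) to place 16 (30.0 ± 4.33). Cd74 lay at place 14 in DPPIV- FAPs with a wide spread of 32.7 ± 16.2 CPM per kb. Ciita and Nlrc5 were the lowest of the list in both cell types, with Ciita at 0.158 ± 0.0795 and 0.0643 ± 0.0265 CPM per kb.

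Differences between the animals ran mostly one way across the list. In the same model, 16 of the 43 listed genes were lower in mouse 2 than in mouse 1 and 0 were higher by edgeR (0 also at an unadjusted p under 0.05), against 4.51% and 4.47% of all genes tested. DESeq2 called 2 of them lower, Irf7 and Cd74, and 0 higher (0.388% and 0.561% of all genes). In 34 of the 43 genes, mouse 2 was below mouse 1 in both cell types, as it was in 31.6% of all genes. The fitted difference was below 0 in 42 genes, with a median of -0.19 on the log2 scale, and the exception was Ddx58. The largest differences called were in Mx1 (-0.86), Cd74 (-0.81), Irf7 (-0.55), Psmb9 (-0.50) and Gbp3 (-0.41). Mx1 had 6.91 CPM (DPPIV-) and 8.98 CPM (DPPIV+) in mouse 1 and 4.13 and 4.54 CPM in mouse 2. Its gap between the animals in each cell type was wider than the gap between the cell types in each animal. Macrophage markers were also lower in mouse 2 in 8 of 13 tested genes, and blood endothelial markers in 7 of 7, whereas tenocyte markers were higher in mouse 2 in 4 of 4 and satellite cell and myofibre markers in 3 of 3 tested genes. Their part in the difference was not tested. With 1 animal on each side, this comparison is between these 2 mice.

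**Figure D5:**
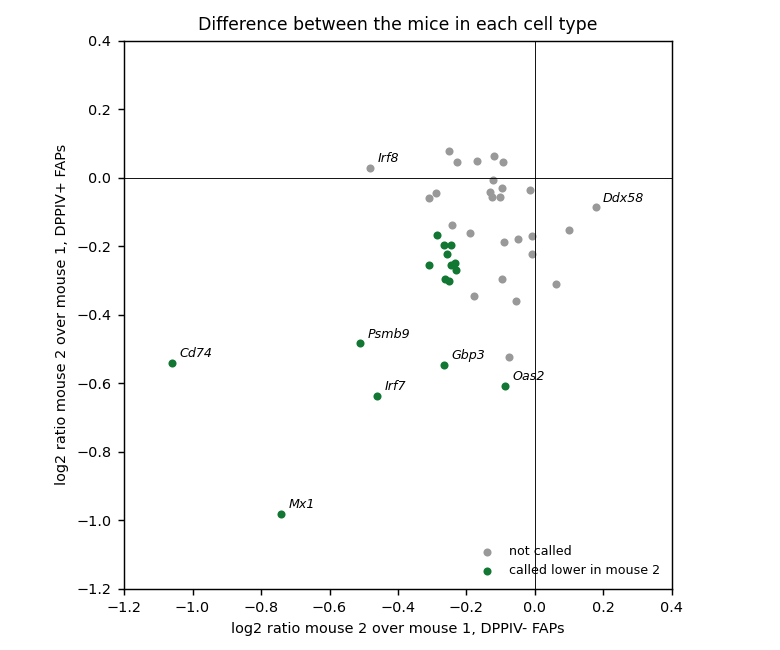
Log2 ratio of mouse 2 over mouse 1 in DPPIV- FAPs (horizontal) and in DPPIV+ FAPs (vertical) for each tested gene of the list, with green points for the 16 genes called lower in mouse 2. Most points lie in the lower left, where mouse 2 is below mouse 1 in both cell types, with Mx1, Cd74 and Irf7 farthest out.

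A wider list of 142 other interferon and antigen presentation genes was counted in the same way. Of these, 110 were tested, and 34 were higher and 12 lower in DPPIV+ FAPs by edgeR, beside 15.9% and 17.2% of all genes. DESeq2 called 16 and 4, beside 7.97% and 8.59% of all genes. Without the block the counts were 15 and 4, beside 8.64% and 9.66% of all genes. Other interferon-induced genes held most of the rises, with 23 higher and 4 lower of 45 by edgeR (51.1% and 8.89%). Zbp1, a sensor of nucleic acids with left-handed helices, had 23.5 CPM (DPPIV-) and 63.8 CPM (DPPIV+) in mouse 1 and 19.0 and 47.4 CPM in mouse 2. The DPPIV+ libraries were far above the DPPIV- libraries in both mice, with a log2 fold change of 1.39 (SE 0.08, edgeR adjusted p = 2.58e-59). Samhd1, which hydrolyses deoxynucleotides and so restricts viruses, had 87.5 CPM (DPPIV-) and 227 CPM (DPPIV+) in mouse 1 and 86.7 and 210.0 CPM in mouse 2 and a log2 fold change of 1.32. Ifi27l2a was at 1.16. The falls were led by Ifi30, the lysosomal thiol reductase that prepares antigens, with 106 CPM (DPPIV-) and 49.8 CPM (DPPIV+) in mouse 1 and 94.8 and 53.2 CPM in mouse 2 and a log2 fold change of -0.96, followed by Ifit3b at -0.83 and Ifi44 at -0.74. Zbp1, Samhd1, Ifi27l2a, Ifi30 and Ifit3b were also called by DESeq2 and without the block, and Ifi44 by neither.

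Signalling genes gave 5 higher and 3 lower of 24, that is 20.8% and 12.5%, near the shares of all genes. Irf4 is an IRF factor known from lymphocytes and macrophages. It had 8.68 CPM (DPPIV-) and 21.7 CPM (DPPIV+) in mouse 1 and 10.9 and 30.2 CPM in mouse 2. Its log2 fold change was 1.40 (SE 0.12, edgeR adjusted p = 1.59e-30), and it was higher in mouse 2 in each cell type. Among the 24 tested signalling genes, the fitted difference of mouse 2 from mouse 1 was below 0 in 8. Tlr4, the receptor for bacterial lipopolysaccharide, rose by 0.55 on the log2 scale, and Socs3, an inhibitor of cytokine signalling, by 0.35. The falls were in Tmem173, which encodes STING (-0.31), and in the phosphatase genes Ptpn1 (-0.28) and Ptpn2 (-0.26), and DESeq2 called none of these 3.

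Other GTPases gave 3 higher and 1 lower of 9 (33.3% and 11.1%), with Irgm2 at 0.51, Gbp9 at 0.47, Gbp5 at 0.29 and Tgtp2 at -0.89. Of these, DESeq2 called Irgm2 alone. Other MHC class I and antigen processing genes gave 3 higher and 3 lower of 22. That is 13.6% each way, below the shares of all genes (15.9% and 17.2%). H2-T24 (0.48, with overlapping groups) and the proteasome activator genes Psme1 (0.34) and Psme2 (0.27) were higher. H2-Q10 (-2.19), Cd1d1 (-0.62), which presents lipids, and Hfe (-0.29), which takes part in iron sensing, were lower. DESeq2 called 1 gene of this group higher and 1 lower (4.55% each), beside 7.97% and 8.59% of all genes. Without the block, edgeR also called 1 higher and 1 lower, beside 8.64% and 9.66% of all genes. H2-Q10 was rare, with 52 DPPIV- and 4 DPPIV+ reads in mouse 1 and 40 and 14 in mouse 2. Of other MHC class II genes, 1 of 10 was called, as lower (10%, beside 17.2% of all genes). This was Ctss, the cathepsin that trims the invariant chain, at -0.38. Its groups overlapped and DESeq2 did not call it (adjusted p = 0.139). The interferons themselves were close to undetected: the reads of 10 ligand genes summed to 2 (DPPIV-) and 0 (DPPIV+) in mouse 1 and to 1 and 1 in mouse 2, and 7 of the 10 had 0 reads in all 4. At this depth, a level up to the floor of 0.143 to 0.166 CPM per gene would not have been detected.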

How the data were processed

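DPPIV- and DPPIV+ FAPs of 2 mice were sequenced as 4 bulk libraries. The sample labels name the tibialis anterior and a NEBNext Ultra II kit, whereas the protocols name both hindlimbs and the paper a TruSeq kit. The authors demultiplexed the reads with bcl2fastq (2.20), aligned them to mm10 with STAR, counted them on genes and deposited raw counts per gene symbol, with no normalization. The annotation release and the strand setting of the counting are not given in the sources used here.

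The fit used the 11588 genes that reached 2 CPM in 2 or more libraries. Counts were scaled by TMM and fitted in edgeR 4.0.16 (R 4.3.3) with mouse and cell type as terms. The quasi-likelihood F test was two-sided, and p-values were adjusted by the Benjamini-Hochberg method and called under 0.05. The model leaves 1 residual degree of freedom, and edgeR estimated infinite prior ones, which makes p-values of abundant genes small. Standard errors are the log2 fold change over the square root of F. Mouse numbers in the labels pair the libraries of an animal, and differences between the mice in the 2 cell types correlated over genes with a coefficient of 0.415 (genes are not independent replicates). DESeq2 1.42.0, the tool of the study, and the other settings were alternatives. The tests were also tested on simulated data.

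The members and gene lists were chosen with earlier results of these data known. Full values were given, per role, for up to 3 called genes per direction with the same direction in both mice and for the gene with the most CPM per kb, and for the wider list for up to 3 called genes per group and direction, and Isg15, Rsad2, Mx1 and the class II chains were added after their values were seen. Of 143 genes on the wider list, Rnf213 is not analysed here. Gene positions, lengths and exon overlaps are from GENCODE M21, similar transcripts from BLAST 2.17.0 (identity of 97% or more over 50 bases or more), and promoter windows from RefSeq. Ciita, Mx1, Mx2, Cd74, Nlrc5, Tap2, Usp18 and Oas2 were not matched to a window.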

Additional observations from a re-analysis of the deposited data

How the results depend on the processing

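The counts of calls changed most with the test. Of all genes tested, 15.9% higher and 17.2% lower became 7.97% and 8.59% in DESeq2. They became 8.64% and 9.66% without the block, and 3.76% and 5.66% in the test against a 1.5-fold change. Of the listed genes, 18 higher and 6 lower became 7 and 3 in DESeq2 and 2 and 0 in the test against a 1.5-fold change (edgeR's glmTreat, 1 lower at an unadjusted p under 0.05). Without the mouse block, that is without the pairing of libraries by animal, they became 5 and 2. In the wider list, 34 higher and 12 lower became 16 and 4 in DESeq2, 5 and 2 against a 1.5-fold change, and 15 and 4 without the block. Without both the block and the DPPIV- library of mouse 1, chosen after seeing the data for its macrophage markers and fitted with no block because its partner is unpaired, 2 listed genes were lower, and 22 genes of the wider list were higher and 5 lower. These alternatives use other spreads, a higher bar or fewer samples. The fit without that library also holds the difference between the mice, so its counts cannot show which calls hold without that library. The 16 genes lower in mouse 2 became 2 in DESeq2.

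The median log2 fold change of 0.17 moved to 0.12 with upper-quartile factors, 0.21 with a GC and length correction with the block and 0.29 without that library and the block, where the difference between the mice enters, while the median of all genes was -0.04, 0.03 and 0.00. With each mouse left out it was 0.14 and 0.18, and no test was possible with 1 library per cell type. Cd74 was -0.31 and turned to 0.28 without both that library and the block, whereas within 1 animal it was -0.02 without mouse 1 and -0.54 without mouse 2. Of the 24 listed genes named in full, 13 kept their direction and side of the threshold in DESeq2, 10 without the block and 24 with robust moderation. Other scalings and filters kept the counts within 1.5-fold.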
